A study of Mus musculus with 8 samples.

Results

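Metallothioneins and zinc transport genes were followed in mouse liver, in 7 genes out of 19934 genes on the array. The genes were the metallothioneins Mt1 and Mt2, the metal-responsive transcription factor gene Mtf1, the importer genes Slc39a14 and Slc39a4, and the exporter genes Slc30a1 and Slc30a10. They were chosen by symbol, with earlier results of these arrays known, and where a gene had several probe sets the one with the highest mean level was to be used. All 7 were found, each with 1 probe set naming it alone, so that level decided nothing here. No p-value adjusted over these 7 genes was computed, and the order of their levels was not tested.

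The data were 4 NS-DADm and 4 WT samples of liver RNA from male C57Bl/6 mice aged 10 to 12 weeks, taken at zeitgeber time 10 and hybridised to 8 arrays, 1 per sample. In NS-DADm mice both NCOR and SMRT, the corepressors that recruit the histone deacetylase HDAC3, carry a mutation of the deacetylase-activating domain (DAD). WT mice carry neither mutation, and both groups had normal chow and a cycle of 12 h light and 12 h dark. The labels name no promoter or Cre that would limit the mutation to a tissue, and they do not say whether each array stands for a separate animal. The p-values thus set the group difference against the spread between the arrays of a group, whatever its source, technical or not. The limma fit moderates that spread with the spread of all genes. The 6 hepatocyte markers Alb, Ttr, Apoa1, Apob, Asgr1 and Hnf4a had mean levels of 13.24 to 13.25 in NS-DADm arrays and 13.23 to 13.26 in WT arrays, on the log2 scale used throughout.

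Metallothioneins are small cysteine-rich proteins that bind zinc and copper and buffer them inside the cell. When free zinc rises, the transcription factor MTF-1 binds metal response elements (MREs) in the promoters of Mt1, Mt2 and the zinc exporter gene Slc30a1. Liver metallothionein is also known to rise in the acute phase response, through interleukin-6 and STAT3, and with glucocorticoids. ZIP proteins (Slc39a genes) move zinc into the cytosol and ZnT proteins (Slc30a genes) move it out or into organelles.

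The promoters of the 4 clustered metallothionein genes and of Slc30a1 are printed as a description of genes that lie together or share a known regulator. Their part in the expression values was not tested. Each line gives the 250 bases before the start site in the RefSeq promoter table (GRCm38.p6), on the plus strand, with MRE cores in capitals. A core was TGCACNC or TGCGCNC on either strand, and overlapping matches were counted separately. For Mt1 and Slc30a1 the start in this table lies inside the widest RefSeq span of the gene, so the last 206 and 84 printed bases fall within that span.
Mt1 promoter, chr8:94178839-94179088: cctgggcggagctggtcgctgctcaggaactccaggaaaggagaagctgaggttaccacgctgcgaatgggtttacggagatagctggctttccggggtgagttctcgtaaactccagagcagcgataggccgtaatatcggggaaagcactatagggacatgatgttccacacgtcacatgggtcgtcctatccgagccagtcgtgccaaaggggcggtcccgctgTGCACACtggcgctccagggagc
Mt2 promoter, chr8:94172368-94172617: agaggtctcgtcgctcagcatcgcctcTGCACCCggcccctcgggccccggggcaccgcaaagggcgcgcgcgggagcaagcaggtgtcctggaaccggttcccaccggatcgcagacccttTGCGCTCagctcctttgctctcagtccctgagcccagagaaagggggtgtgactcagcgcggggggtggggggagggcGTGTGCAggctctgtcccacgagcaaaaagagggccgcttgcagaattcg
Mt3 promoter, chr8:94152357-94152606: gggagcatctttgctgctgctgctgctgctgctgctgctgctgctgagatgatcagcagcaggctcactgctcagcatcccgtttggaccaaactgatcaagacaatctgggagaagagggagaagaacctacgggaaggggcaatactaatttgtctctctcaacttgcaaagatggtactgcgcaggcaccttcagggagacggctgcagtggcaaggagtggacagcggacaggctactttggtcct
Mt4 promoter, chr8:94136954-94137203: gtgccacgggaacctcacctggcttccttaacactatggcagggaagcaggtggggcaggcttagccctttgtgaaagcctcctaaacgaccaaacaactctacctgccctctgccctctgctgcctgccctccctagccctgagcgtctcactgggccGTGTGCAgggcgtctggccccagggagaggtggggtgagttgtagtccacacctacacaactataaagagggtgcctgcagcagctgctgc
Slc30a1 promoter, chr1:191906531-191906780: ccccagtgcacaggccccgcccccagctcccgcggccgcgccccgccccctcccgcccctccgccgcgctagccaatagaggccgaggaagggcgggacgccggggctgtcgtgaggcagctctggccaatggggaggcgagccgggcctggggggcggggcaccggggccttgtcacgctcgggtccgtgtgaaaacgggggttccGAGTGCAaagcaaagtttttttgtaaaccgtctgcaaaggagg

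In the whole 300-base windows, which run 50 bases past the start, Mt2 held 4 MRE cores, Mt1 3, Slc30a10 3, Slc30a1 2, and Mt3 and Mt4 1 each. Of the Mt1 cores, 2 lay just after the RefSeq start, at positions 3 to 9 and 21 to 27, and the other at -23 to -17. The 3 Slc30a10 matches include an overlapping pair on opposite strands, at -233 to -227 and -232 to -226. The Mtf1 window held none. Over all 27025 promoters of the same length, at least 1 core was found in 25.6%, at least 2 in 7.11%, at least 3 in 2.0% and at least 4 in 0.503%. An antioxidant core, TGACNNNGC on either strand, lay at -79 to -71 in the Mt2 window and at -82 to -74 in the Slc30a1 window. The Mt1 window held none, but it ends 50 bases past the RefSeq start and the bases beyond were not searched. Of all promoters 12.5% held one. The STAT palindrome TTCNNNGAA was in none of these 7 windows and in 8.47% of all promoters. These matches describe letters in a window and were not tested as sites. Each window rests on 1 RefSeq start, and bases outside the windows were not searched. The counts thus hold for these windows only and may miss cores placed by another start site. This limit applies above all to Mt1 and Slc30a1, whose starts lie inside the widest span of the gene. Slc39a14 and Slc39a4 had no entry in the table.

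**Figure D1:**
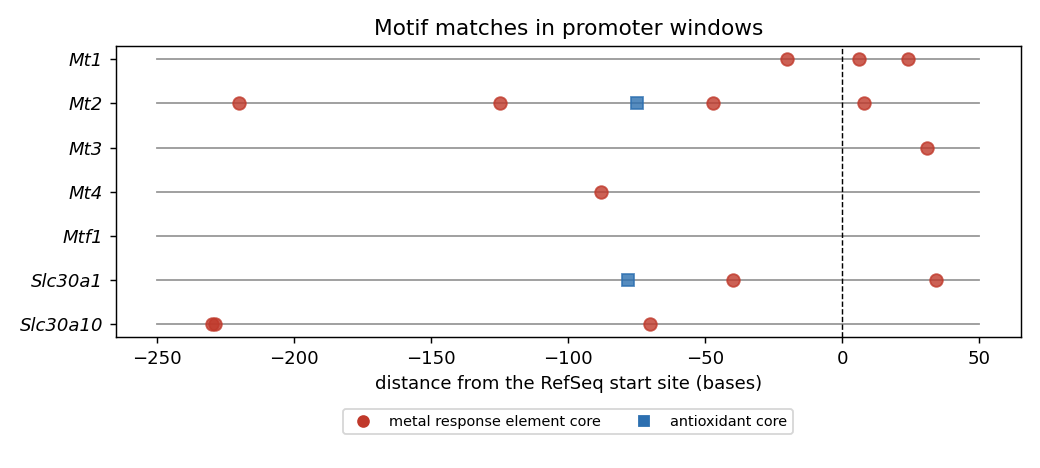
Positions of motif matches (points) along the promoter windows of 7 genes, with the distance from the RefSeq start site in bases on the horizontal axis and 1 line per gene. Within these windows Mt2 holds 4 MRE cores, Mt1 and Slc30a10 3 each, Slc30a1 2, Mt3 and Mt4 1 each and Mtf1 none. Bases outside the windows were not searched.

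Mt1 and Mt2 had the largest differences of the 7 genes: both were higher in every NS-DADm array than in any WT array, at 2.75-fold and 2.40-fold of the WT mean. Neither passed the test over all genes. Mt1 (Entrez Gene 17748; GRCm38 chromosome 8, 94178883 to 94180327) had log2 values of 12.61, 12.37, 11.20 and 11.87 in NS-DADm arrays 1 to 4, against 10.83, 10.37, 11.02 and 9.98 in WT arrays 1 to 4. The lowest NS-DADm array, replicate 3, lay just above the highest WT array, replicate 3. The means were 12.01 ± 0.62 in NS-DADm and 10.55 ± 0.47 in WT arrays (SD, n = 4 each). The log2 fold change was 1.46 (SE 0.30, 95% confidence interval 0.80 to 2.11, adjusted p = 0.0943 by limma).

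Mt2 (Entrez Gene 17750; chromosome 8, 94172618 to 94173567) had 13.57, 13.47, 12.95 and 13.31 in NS-DADm arrays and 12.42, 11.91, 12.66 and 11.25 in WT arrays. The gap between the groups was wider than for Mt1, with the lowest NS-DADm array at 12.95 and the highest WT array at 12.66. The means were 13.32 ± 0.27 in NS-DADm and 12.06 ± 0.62 in WT arrays (SD, n = 4 each). The difference on the log2 scale was 1.26 (SE 0.26, 95% confidence interval 0.69 to 1.84, adjusted p = 0.102). In linear terms the interval ran from 1.75- to 4.33-fold for Mt1 and from 1.61- to 3.58-fold for Mt2.

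The size of both differences ranked higher among all genes than the p-values did, and both genes varied widely within groups. Of 19934 genes Mt1 had the 7th and Mt2 the 15th highest log2 fold change, but their p-values ranked 107 and 110. The within-group SD was 0.55 for Mt1 and 0.48 for Mt2, against a median of 0.10 over all genes, and 99.7% and 99.6% of genes had a smaller one.

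The arrays stood in the same order for both genes. In the NS-DADm group replicate 1 was highest, then 2, 4 and 3, and in the WT group replicate 3 was highest, then 1, 2 and 4. Pearson's r between Mt1 and Mt2 was 0.959 over the 8 arrays and 0.866 with the group means taken off. Within the NS-DADm arrays alone it was 0.993 and within the WT arrays alone 0.995 (n = 4 each). This is a description of genes that start 6.27 kb apart and are similar in sequence, and whether their probes share signal was not tested. NS-DADm replicate 1 was 2.05 above the WT mean for Mt1 and 1.51 for Mt2, and NS-DADm replicate 3 was 0.65 and 0.89 above it. The WT arrays with more Mt1 and Mt2 also had higher array medians, which were 7.50 and 7.48 in WT replicates 1 and 3 and 7.41 and 7.39 in WT replicates 2 and 4, against 7.43 to 7.45 in NS-DADm arrays. With each array's median taken off, the log2 fold changes were 1.47 and 1.27 (adjusted p = 0.101 and 0.0993 by limma). Without NS-DADm replicate 3 Mt1 passed the test, at 1.73 (adjusted p = 0.0369), and Mt2 did not, at 1.39 (adjusted p = 0.147).

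**Figure D2:**
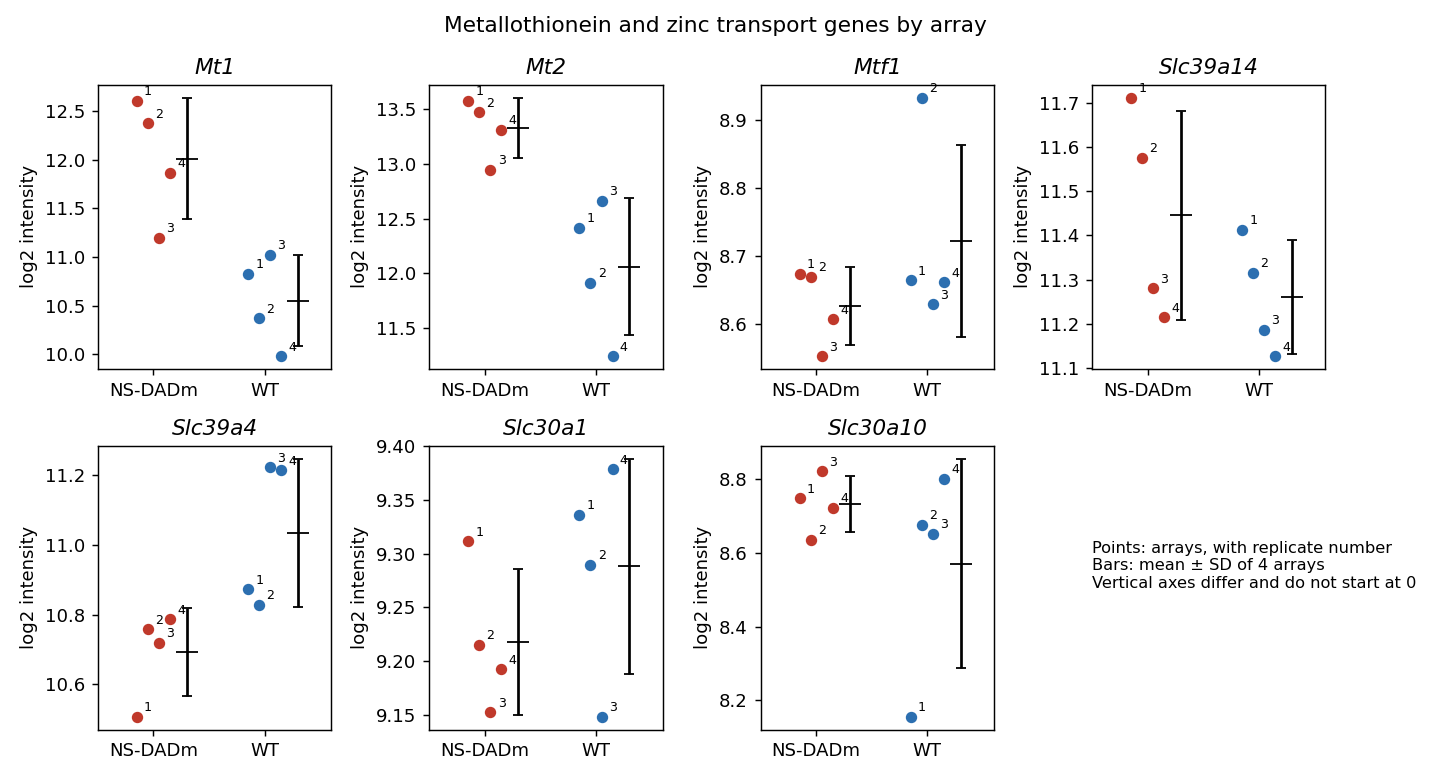
Log2 intensity (vertical axis, a separate scale per gene that does not start at 0) of the 7 genes in NS-DADm arrays (red, left) and WT arrays (blue, right). Points are arrays with their replicate number and bars are the mean ± SD of 4 arrays; Mt1 and Mt2 lie higher and Slc39a4 lower in all NS-DADm arrays, and the other 4 genes overlap.

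None of the 7 genes passed the test at an adjusted p under 0.05, a call made for 0.271% of all genes (0.161% higher and 0.110% lower in NS-DADm). Groups did not overlap in 2 of the 7 with NS-DADm higher, against 1.80% of all genes, and in 1 with NS-DADm lower, against 3.83%. The genes were chosen with these values known, so the counts only describe them. At an unadjusted p under 0.05 there were 3, namely Mt1, Mt2 and Slc39a4, against 9.33% of all genes.

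The genes beside Mt2 and Mt1 on chromosome 8 had values near 0. Mt3, a form known from brain, had 8.74, 8.64, 8.65 and 8.55 in NS-DADm arrays and 8.88, 8.64, 8.88 and 8.37 in WT arrays, a log2 fold change of -0.05 (95% confidence interval -0.28 to 0.19). Mt4, a form of stratified squamous epithelia, had 6.97, 7.08, 6.89 and 6.95 in NS-DADm arrays and 7.06, 6.91, 6.96 and 6.78 in WT arrays, a log2 fold change of 0.04 (95% confidence interval -0.11 to 0.20). The groups overlapped in both, and their adjusted p-values were 0.972 and 0.948. The intervals of Mt3 and Mt4 end below the point where those of Mt1 and Mt2 begin. The cluster's 8 nearest measured neighbours were Gnao1, Nudt21, Ogfod1 and Bbs2 on one side and Nup93, Mir138-2, Slc12a3 and Herpud1 on the other. None passed the test. Their values ran from -0.14 (Bbs2, 95% confidence interval -0.27 to -0.01, adjusted p = 0.485) to 0.10 (Nup93, adjusted p = 0.697). In both groups the mean levels of Mt4, Gnao1, Slc12a3 and Mir138-2 were below every array's median, where a difference may show less.

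**Figure D3:**
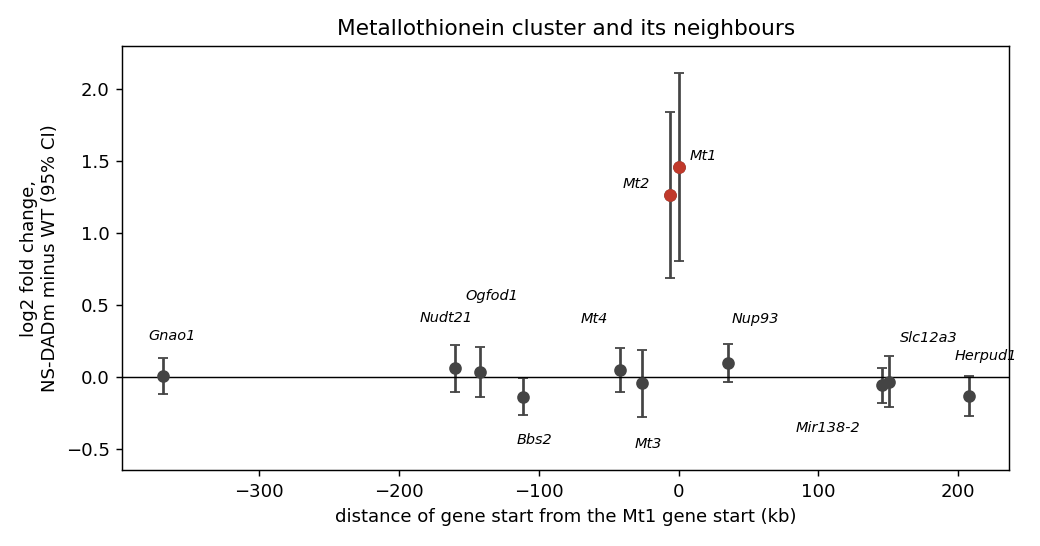
Log2 fold change, NS-DADm minus WT, with 95% confidence interval (vertical axis) of the metallothionein genes and 4 measured neighbours on each side, against the distance of the gene start from the Mt1 start in kb (horizontal axis). Mt1 (1.46) and Mt2 (1.26), in red, stand apart from the others, which lie between -0.14 and 0.10.

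Mtf1 encodes the zinc-sensing activator of Mt1, Mt2 and Slc30a1 (Entrez Gene 17764; chromosome 4, 124802549 to 124849800). The groups overlapped and did not differ beyond the spread. It had 8.67, 8.67, 8.55 and 8.61 in NS-DADm arrays and 8.66, 8.93, 8.63 and 8.66 in WT arrays. The groups differed by -0.10 (95% confidence interval -0.26 to 0.07, adjusted p = 0.800). WT replicate 2 was above all other arrays, and without it the value was -0.03. MTF-1 activity depends on zinc binding and nuclear entry, which transcript levels do not measure.

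Slc30a1, which encodes ZnT1, the zinc exporter of the plasma membrane (Entrez Gene 22782; chromosome 1, 191906697 to 191913248), had 9.31, 9.22, 9.15 and 9.19 in NS-DADm arrays and 9.34, 9.29, 9.15 and 9.38 in WT arrays. The groups overlapped, with NS-DADm replicate 3 and WT replicate 3 both near 9.15. The log2 fold change was -0.07 (95% confidence interval -0.21 to 0.07, adjusted p = 0.857), which in linear terms is 0.952-fold with an interval from 0.863 to 1.05. That interval lies below the intervals of Mt1 and Mt2, the other known MTF-1 targets among the 7 genes. The part of MTF-1 in these values was not tested.

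Slc30a10, a member of the ZnT family known as the manganese exporter of hepatocytes (Entrez Gene 226781; chromosome 1, 185454848 to 185468762), had 8.75, 8.64, 8.82 and 8.72 in NS-DADm arrays and 8.15, 8.68, 8.65 and 8.80 in WT arrays. WT replicate 1 was low and the other arrays overlapped. The log2 fold change of 0.16 (95% confidence interval -0.10 to 0.43, adjusted p = 0.792) was 0.02 without that array.

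Of the importers, Slc39a14 encodes ZIP14, which takes zinc, iron and manganese into hepatocytes and is known to rise with interleukin-6 (Entrez Gene 213053; chromosome 14, 70303467 to 70351452). It had 11.71, 11.58, 11.28 and 11.22 in NS-DADm arrays and 11.41, 11.32, 11.19 and 11.13 in WT arrays. NS-DADm replicates 1 and 2, which also had the highest Mt1 and Mt2 values, were above all WT arrays, while NS-DADm replicates 3 and 4 lay within the WT range. NS-DADm minus WT was 0.18 (95% confidence interval -0.06 to 0.43, adjusted p = 0.689), and 0.10 without NS-DADm replicate 1.

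Slc39a4 encodes ZIP4, the zinc importer of the intestine whose loss in humans causes acrodermatitis enteropathica (Entrez Gene 72027; chromosome 15, 76612383 to 76618506). Its values of 10.51, 10.76, 10.72 and 10.79 in NS-DADm arrays all lay below those of 10.87, 10.83, 11.22 and 11.21 in WT arrays. The nearest arrays of both groups, NS-DADm replicate 4 and WT replicate 2, were 10.79 and 10.83. The log2 fold change was -0.34 (SE 0.10, 95% confidence interval -0.57 to -0.11), 0.789-fold, with an adjusted p of 0.295. Of 5 measured intestinal epithelium markers, Vil1, Lct and Sis differed by -0.01, 0.03 and 0.00, while Fabp2, which liver may also express, was at 0.22 and Cdx2 at -0.14, none past the test. Their mean level was 7.06 to 7.26 in NS-DADm and 7.07 to 7.20 in WT arrays. Fabp2 stood far above the others, at 10.78 in NS-DADm and 10.56 in WT arrays. Vil1, Lct, Sis and Cdx2 were at 6.42, 7.08, 4.77 and 6.81 in NS-DADm arrays. In WT arrays they were at 6.43, 7.05, 4.77 and 6.95, and all these means were below every array's median.

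The rest of both transporter families gave no call. Of 12 other ZIP genes none passed the test over all genes; 10 had values below 0 and 2, Slc39a1 (0.06) and Slc39a13 (0.07), above. Their median was -0.11, beside -0.01 over all genes, of which 55.7% had values below 0. Slc39a8, which encodes the zinc and manganese importer ZIP8, was at -0.23 (95% confidence interval -0.43 to -0.04, adjusted p = 0.422). Slc39a2 was at -0.24 (adjusted p = 0.495), and Slc39a11, Slc39a5, Slc39a10 and Slc39a6 lay between -0.15 and -0.12. At an unadjusted p under 0.05 there were 4 of the 12, Slc39a2, Slc39a5, Slc39a8 and Slc39a11, all with values below 0, beside 9.33% of all genes in either direction. Groups did not overlap in 2 of the 12, Slc39a5 and Slc39a12, with NS-DADm lower, beside 3.83% of all genes. Slc39a12 differed by only -0.08, at mean levels of 5.87 in NS-DADm and 5.95 in WT arrays, below every array's median.

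Averaged per array over those 12 genes, the level was 8.43 to 8.47 in NS-DADm arrays and 8.52 to 8.56 in WT arrays, a description with no test. In the same arrays all 6 sinusoidal endothelial markers had values below 0, with a median of -0.29 and none past the test. Their mean level was 9.05 to 9.68 in NS-DADm and 9.48 to 9.70 in WT arrays. Of 6 stellate cell markers 5 had values below 0, with a median of -0.15 and none past the test, and the mean level was 9.27 to 9.98 in NS-DADm and 9.69 to 9.92 in WT arrays. The part of both cell types in the ZIP values was not tested, and in bulk tissue fewer cells of a type and less RNA per cell cannot be told apart.

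Of 8 other ZnT genes 5 had values above 0 and 3 below, with a median of 0.01 and none past the test. Slc30a5, which encodes ZnT5 of the secretory pathway, had 10.41, 10.38, 10.14 and 10.01 in NS-DADm arrays and 9.77, 10.10, 9.90 and 10.11 in WT arrays. That is a log2 fold change of 0.27 (95% confidence interval 0.03 to 0.50, adjusted p = 0.454), with overlapping groups, and it was the 1 of the 8 at an unadjusted p under 0.05. The other 7 lay between -0.04 (Slc30a3) and 0.02 (Slc30a8).

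**Figure D4:**
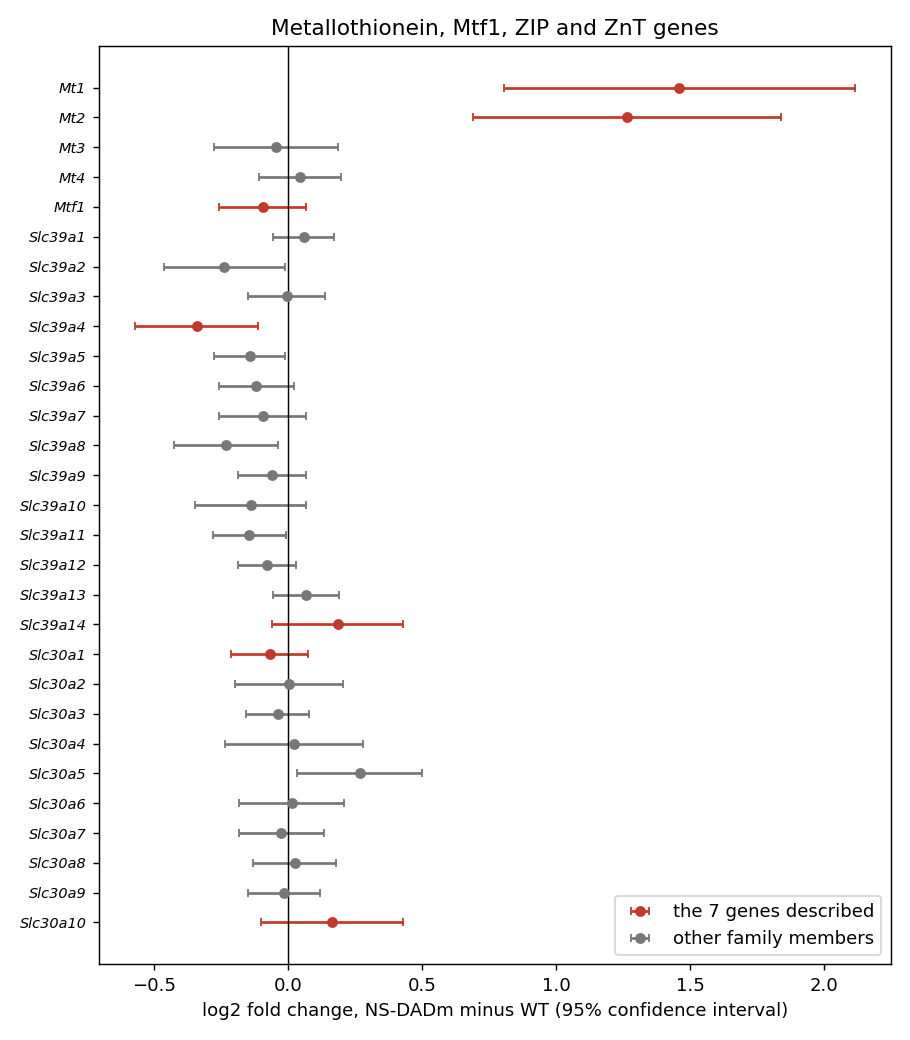
Log2 fold change, NS-DADm minus WT (horizontal axis), with its 95% confidence interval for the metallothioneins, Mtf1 and all ZIP (Slc39a) and ZnT (Slc30a) genes, with the 7 genes described in red. The intervals of Mt1 and Mt2 lie to the right of all others, and 10 of the 12 grey ZIP genes lie below 0.

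Copper, the other metal that metallothioneins bind, showed no call among 11 measured handling genes, whose median was -0.01. The copper chaperone gene Atox1 was at -0.55 (adjusted p = 0.457) and Slc31a2, of the copper transporter family, at -0.21 (adjusted p = 0.603), the largest absolute values of the list. The 95% confidence intervals were -1.03 to -0.06 for Atox1 and -0.45 to 0.03 for Slc31a2.

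Lists of genes that share known inducers with the metallothioneins had medians of either sign. Of 22 genes of the interleukin-6 and STAT3 response 19 had values above 0, beside 8839 of all 19934 genes, and the median was 0.17. Of the list 3 rose, beside 0.161% of all genes. They were Saa2 (1.63, adjusted p = 0.0177 by limma), Lcn2 (1.29, adjusted p = 0.0479) and Orm2 (1.0, adjusted p = 0.00718). Groups did not overlap in 11 of the 22, with NS-DADm higher, beside 1.80% of all genes. That list was chosen with the rise of acute phase genes in these arrays known, so it is no independent evidence. Stat3 itself was at 0.31 (adjusted p = 0.330), the feedback inhibitor gene Socs3 at 0.16 (adjusted p = 0.832) and the receptor gene Il6ra at -0.27 (adjusted p = 0.294). The list's mean level was 11.26 and 11.20 in NS-DADm replicates 1 and 2 and 10.98 and 10.94 in NS-DADm replicates 3 and 4, against 10.63 to 10.75 in WT arrays. The order of the arrays otherwise differed from that of Mt1 and Mt2: WT replicate 3, the WT array with the most of both, had the lowest list level, and NS-DADm replicate 4 had more of both than NS-DADm replicate 3 but a lower list level. Pearson's r with the mean of Mt1 and Mt2 was 0.86 over the 8 arrays and 0.46 with the group means taken off, as a description. The 6 neutrophil markers had mean levels of 6.27 to 6.45 in NS-DADm arrays and 6.13 to 6.34 in WT arrays, below every array's median, with 5 of 6 values above 0. Their r with the mean of Mt1 and Mt2 was 0.81 over the 8 arrays and 0.66 with the group means taken off. The 6 Kupffer cell markers had mean levels of 8.43 to 9.49 in NS-DADm arrays and 8.56 to 9.12 in WT arrays, with r of -0.19 and -0.59. None of these 12 markers passed the test, and their part in the metallothionein values was not tested. With group means taken off, r was also 0.84 for pancreatic acinar, 0.76 for erythroid, 0.67 for cholangiocyte and 0.61 for intestinal epithelium markers. It was -0.48 for stellate cell, -0.28 for sinusoidal endothelial and -0.05 for hepatocyte markers.

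Glucocorticoids also induce liver metallothionein, and of 12 other glucocorticoid-responsive genes none passed the test. The values of 9 were below 0, beside 55.7% of all genes, and the median was -0.16. Groups did not overlap in 4 of the 12, with NS-DADm lower, beside 3.83% of all genes. Tsc22d3 (-0.45, adjusted p = 0.182) and Zbtb16 (-0.41, adjusted p = 0.125) had the largest absolute values, both with all NS-DADm arrays below all WT arrays. Of 10 oxidative stress genes none passed the test and 8 had values above 0, beside 8839 of all 19934 genes, with a median of 0.16. Groups did not overlap in 2 of the 10, with NS-DADm higher, beside 1.80% of all genes. Nqo1, a quinone reductase gene, was at 0.44 (adjusted p = 0.0591) and Srxn1, which encodes sulfiredoxin, at 0.32 (adjusted p = 0.430).

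The genes whose values over the 8 arrays most resembled the mean of Mt1 and Mt2 were Ccnd1 (Pearson's r = 0.930), Lcn2 (0.926), Nipal1 (0.876), Socs2 (0.870), Cyp17a1 (0.869) and Fgl1 (0.861), among genes with an SD of at least 0.3. The 8 arrays fall into the study's groups, so r includes the group difference and is given as a description. Ccnd1, which encodes cyclin D1, had 10.49, 10.46, 9.98 and 10.17 in NS-DADm arrays and 9.99, 9.92, 9.80 and 9.52 in WT arrays, a log2 fold change of 0.46 (adjusted p = 0.240, not past the threshold). Values were 0.91 (adjusted p = 0.0514) for Nipal1, of a magnesium transporter family, and 1.18 (adjusted p = 0.0665) for Socs2, which restrains growth hormone signalling. On the same log2 scale Lcn2, Cyp17a1 (1.59, adjusted p = 0.00493) and Fgl1 (0.80, adjusted p = 0.0102) rose. Among the 7 genes, r with the metallothionein mean was 0.70 for Slc39a14, -0.72 for Slc39a4, -0.44 for Slc30a1, -0.36 for Mtf1 and 0.08 for Slc30a10.

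**Figure D5:**
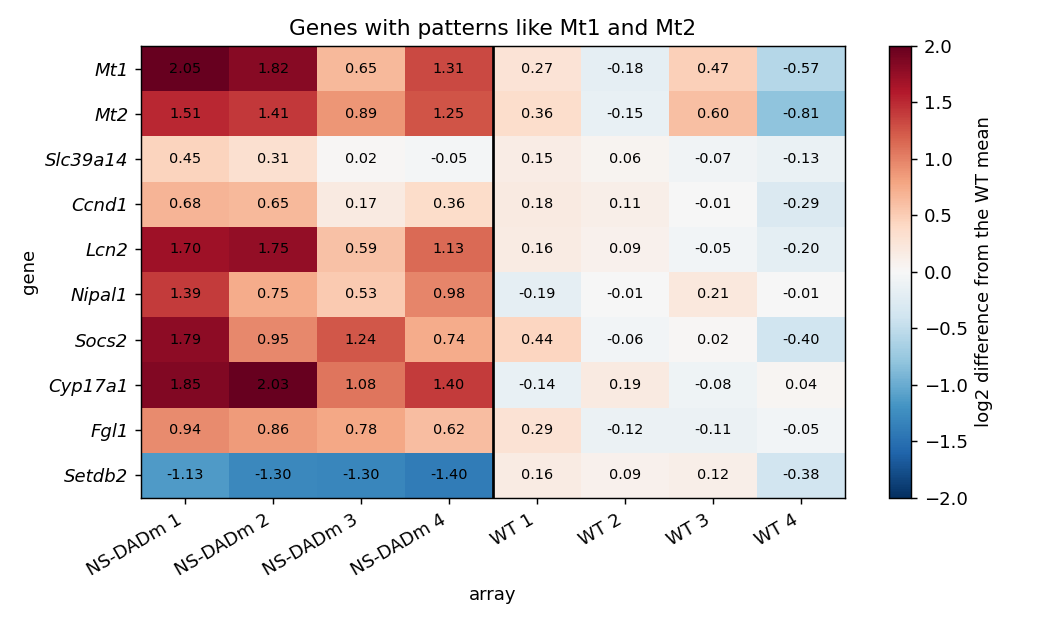
Log2 difference of each array (columns, NS-DADm left of the line and WT right) from the WT mean of the gene (rows), for Mt1, Mt2, Slc39a14, the 6 genes most like Mt1 and Mt2 over the 8 arrays, and Setdb2. Colours run from -2 (blue) to 2 (red). All rows except Nipal1 and Socs2 are higher in NS-DADm replicates 1 and 2 than in replicates 3 and 4, Setdb2 only just.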

How the data were processed

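Liver RNA of 4 NS-DADm and 4 WT samples was measured on single-colour Affymetrix arrays, 1 array per sample. The deposited values are read here as log2 intensities, from their range of 3.43 to 14.37, and per the submitters' processing notes the authors used RMA and Partek, with versions and settings not given in the sources used here. RMA compresses small differences at low intensity. No batch or detection call was given, and signal over background is unknown. Groups came from the titles and genotypes in the labels; the growth text names WT for every sample. Levels of NCOR and SMRT transcripts are not analysed here.

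Of 28270 probe sets 21780 named 1 gene, 1617 several and 4873 none, per the platform annotation. Symbols were updated by Entrez Gene identifier through RefSeq genes of GRCm38.p6, which matched 19852 of 19934 genes. Each gene took the probe set with the highest mean, and no filter or pseudocount was used. Groups were compared with limma 3.58.1 (lmFit, eBayes) in R 4.3.3, two-sided, with p-values adjusted by Benjamini-Hochberg across the 19934 genes and called under 0.05. The fit was checked on simulated data. A fold change is 2 to the power of the log2 difference. Precision is limited by the number of arrays.

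The genes described, the other gene lists and the markers were chosen with earlier results of these data known. The rule for named genes took all 7 genes, both transporter families, up to 4 called genes per direction or else the 2 largest values of each other list, the 6 genes most like Mt1 and Mt2 over the arrays and the 6 most like them with group means taken off, and 4 neighbours on each side. Named beyond it, after their values were seen, were Stat3, Socs3 and Il6ra. Alternatives were other probe set rules, filters on low values, normalizations, variance models, weights per array, a block for the replicate number, a threshold of 0.1 and each array left out. Promoter sequences came from RefSeq (GRCm38.p6), for 5 of the 7 genes and for Mt3 and Mt4. Tables and figures used Python 3.11.15, pandas 2.3.3 and matplotlib 3.10.9.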

Additional observations from a re-analysis of the deposited data

Results flagged for a closer look

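Mtf1 in WT replicate 2 stood at 8.93, while the other 3 WT arrays lay between 8.63 and 8.66 and the NS-DADm arrays between 8.55 and 8.67. Its gap to the next WT array was 0.883 of the group's range, above Dixon's 95% critical value for 4 samples. Of 58 groups of 4 arrays examined this way, over the 29 metallothionein, Mtf1 and zinc transporter genes, this was the 1 that passed the limit, and chance passes about 1 in 20. Leaving that array out brought the log2 fold change of Mtf1 to -0.03, and the adjusted p was 0.955 by limma.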

How the results depend on the processing

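The directions of all 7 genes held under every alternative that gave a value. Mt1 stayed short of the threshold except at a threshold of 0.1, where its log2 fold change of 1.46 passed, and without NS-DADm replicate 3. Its value ran from 1.26 to 1.73 with single arrays left out (adjusted p = 0.0369 to 0.286 by limma), and from 1.36 to 1.47 under the other alternatives (0.0679 to 0.275). Mt2 ran from 0.99 without WT replicate 4 to 1.47 without WT replicate 3, and from 1.10 to 1.27 otherwise (adjusted p = 0.0691 to 0.299 over all). No other ZIP or ZnT gene passed the test under any alternative. The count of changed genes, 54, was 109 with array weights, 105 with the replicate number as a block (replicate block), 109 at a threshold of 0.1, and between 13 (without WT replicate 2) and 126 (without NS-DADm replicate 4) with 1 array left out; it was 31, 35 and 22 without NS-DADm replicate 2, NS-DADm replicate 3 or WT replicate 3. The cause was not tested. Deviations of same-numbered arrays from their group means correlated at r = 0.15, 0.05, -0.10 and 0.25. With 4 arrays per group these values cannot decide whether the numbers pair the samples. The block left Mt1 and Mt2 uncalled (adjusted p = 0.0679 and 0.0691 by limma). Genes of the other lists were not refitted singly under the alternatives. The filters on low values gave no value for genes they removed, which were none of the 7. For the alternative that tested all probe sets only counts were read, with no value for the 7 genes. The number of arrays and the wide spread of Mt1 and Mt2 limit these comparisons.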

Other observations

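Among genes with an SD of at least 0.3 over the arrays, those that with the group means taken off varied most like the mean of Mt1 and Mt2 were Mir375 (r = 0.842), Ccnd1 (0.822), Igfbp1 (0.768), Setdb2 (0.760), Cxcl1 (0.748) and Scara5 (0.745), over 8 arrays and as a description. Setdb2, a gene of the SET-domain histone methyltransferases, combined that with the opposite group difference. It had 9.01, 8.84, 8.83 and 8.73 in NS-DADm arrays and 10.30, 10.23, 10.26 and 9.76 in WT arrays, a log2 fold change of -1.28 (adjusted p = 0.00309 by limma), and its r with the metallothioneins was -0.71 when the group difference was kept. Igfbp1, a fasting-responsive secreted protein gene, had 12.00, 11.20, 10.74 and 11.27 in NS-DADm arrays and 11.11, 10.90, 11.26 and 10.85 in WT arrays (adjusted p = 0.810), so that NS-DADm replicate 1 was highest for Igfbp1, Mt1, Mt2 and Slc39a14. The chemokine gene Cxcl1 had 9.02, 8.68, 8.02 and 8.20 in NS-DADm arrays and 8.16, 8.08, 8.23 and 8.0 in WT arrays (log2 fold change 0.36, adjusted p = 0.589), again with NS-DADm replicate 1 highest.

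Markers of pancreatic acinar cells, of which 5 were measured, also varied with the metallothionein mean within groups (r = 0.84), as did Mt3 (0.80), Mt4 (0.81) and Slc30a2 (0.77), whose SD was under 0.3. The copper handling list (-0.85) and the list of other ZnT genes (-0.53) varied the opposite way. Within the ZnT list Slc30a9 (-0.80), Slc30a4 (-0.79), Slc30a6 (-0.78) and Slc30a7 (-0.70) did so. Besides Slc30a2, Slc30a3 (0.71) and Slc30a8 (0.50) varied with the metallothionein mean, and Slc30a5 was at -0.06. The SD of all these ZnT genes was under 0.3. The mean level of the acinar markers was 7.16 to 7.36 in NS-DADm and 7.10 to 7.40 in WT arrays, in each array below that array's median. Among WT arrays they were highest in replicates 1 and 3, the arrays with the highest medians and the highest Mt1 and Mt2. The part of the array medians in these patterns was not tested.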
